A study of Mus musculus with 6 samples.

Results

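The genes described here are 8 members of the SLC22 family of solute carriers: the organic cation and carnitine transporters of the OCTN group, the organic cation transporters Slc22a2 and Slc22a3, and the relatives Slc22a15, Slc22a18 and Slc22a23. The 8 are a part of the family, chosen with earlier results of these data known, and 17 other SLC22 genes are given below as a separate list. A gene was read from the probe sets, groups of short oligonucleotides on an Affymetrix mouse array, whose only gene symbol in the platform annotation was that gene, and where a gene had several, the one with the highest mean over all arrays was used and the others served as a check. In this way 7 of the 8 genes were measured, by 10 probe sets, out of 18193 genes and 45037 probe sets in all. Slc22a3 was not analysed here, because no probe set carried its symbol alone.

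SLC22 proteins span the plasma membrane and carry small charged molecules into or out of the cell. The OCTN members take up carnitine, which the cell needs to bring long-chain fatty acids into mitochondria, and ergothioneine, a diet-derived antioxidant. In the gut they sit in the epithelium that faces the lumen, and the human genes SLC22A4 and SLC22A5 lie in a region linked to inflammatory bowel disease.

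The study asked what the nuclear receptor HNF4alpha, a transcription factor of the gut epithelium, does in the adult colon. It compared 3 Hnf4a mutant mice with 3 control littermates, all killed at 1 year of age after ketamine (300 mg/kg) and xylazine (40 mg/kg) and kept in a pathogen-free house. In the mutants Hnf4a was deleted by Cre recombinase under the villin promoter, which acts in intestinal epithelium, so that other cells of the colon kept the gene, and the controls were labelled wildtype. Total RNA of each mouse's colon (the proximal part, by the study's methods) was put on an array of its own, and values are log2 signals after robust multi-array averaging (RMA), on which 1 unit is a doubling.

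Several facts of the arrays and the mice bear on every value below. Hnf4a gave 12.23, 12.01 and 11.97 log2 units in the controls and 10.17, 10.09 and 10.15 in the mutants, a change of -1.94 (standard error, SE, 0.10, limma adjusted p = 0.000788), and whether its probes match the part of the gene that was removed was not analysed here. The labels call the controls and mutant replicate 1 female and mutant replicates 2 and 3 male, but Xist, the RNA of the inactive X chromosome, gave 9.94 to 10.96 in the controls and 5.03 to 5.32 in all 3 mutants, and the Y-linked gene Eif2s3y 2.75 to 3.16 against 7.85 to 8.12. Mutant replicate 1 therefore goes against its label, and genotype and sex cannot be told apart in any comparison here. By the study's account, mutants of this age also had severe crypt distortion and colonic inflammation. The deletion and the disease therefore cannot be told apart in these arrays either. Mutant replicate 2 stood apart in a second way, with medians relative to the controls of -4.02 log2 units over 14 smooth muscle markers and -2.93 over 14 fibroblast and matrix markers, where the lowest in the other mutants was -0.42. It also gave -1.62 over 8 endothelial markers (-0.28 and -0.45 in mutant replicates 1 and 3), -0.78 over 7 markers of enteric neurons and glia (-0.08 and -0.36) and -0.32 over 15 leukocyte markers (-0.08 and -0.05). The part of these differences in the values of the SLC22 genes was not tested beyond leaving that array out. The 13 markers of gut epithelium had medians of 0.18 to 0.22 above the controls in the 3 mutants, and Vil1, Epcam and Cdx2 gave control means of 11.70, 12.92 and 11.31. The markers did not all move the same way. Mutant minus control, Vil1 gave -0.30, Epcam -0.09 and Krt20 -0.49, while Cdx2 gave 0.13 and Krt18 0.75. In a piece of tissue, fewer cells of a type and less RNA per cell cannot be told apart. The values of each member are therefore also given without mutant replicate 1 and without mutant replicate 2.

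Among the OCTN genes, Slc22a4 and Slc22a21 had lower means in the mutants, with mutant-to-control ratios of 0.452 and 0.565, and Slc22a5 a higher one, but no OCTN gene passed the adjusted threshold. None of the 7 genes passed limma at an adjusted p of 0.05, against 0.879% of all genes (0.484% higher and 0.396% lower). At an unadjusted p of 0.05 limma gave 2 of 7, Slc22a4 and Slc22a21, both lower, where 16.2% of all genes passed in either direction and 6.18% lower, and SAM, the permutation-based test that the study's methods name, rebuilt here, gave 2 as well. The median log2 fold change, mutant minus control, was -0.14 over the 7 genes and 0.05 over all genes.

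Slc22a4, Slc22a21 and Slc22a5 lie side by side on mouse chromosome 11. In the RefSeq table of the assembly GRCm38.p6 the order is Slc22a5, Slc22a21, Slc22a4, with no other protein-coding gene in between. The stretches just upstream of Slc22a4 and Slc22a5 are shown because the mutant mean was lower for Slc22a4 and higher for Slc22a5. Neither gene passed the adjusted threshold, and a link between these sequences and the values was not tested. Each is 250 bases ending at the gene's start, from RefSeq on GRCm38.p6, at chr11:54028105-54028354 for Slc22a4 and chr11:53891704-53891953 for Slc22a5, both on the minus strand, 5′ to 3′, with capitals marking CG pairs.
Slc22a4: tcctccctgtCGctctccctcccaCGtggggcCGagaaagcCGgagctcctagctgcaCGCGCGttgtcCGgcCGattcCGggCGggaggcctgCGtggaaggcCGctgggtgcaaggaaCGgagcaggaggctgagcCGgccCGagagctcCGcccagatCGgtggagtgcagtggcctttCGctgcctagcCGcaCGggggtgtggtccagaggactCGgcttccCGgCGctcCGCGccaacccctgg
Slc22a5: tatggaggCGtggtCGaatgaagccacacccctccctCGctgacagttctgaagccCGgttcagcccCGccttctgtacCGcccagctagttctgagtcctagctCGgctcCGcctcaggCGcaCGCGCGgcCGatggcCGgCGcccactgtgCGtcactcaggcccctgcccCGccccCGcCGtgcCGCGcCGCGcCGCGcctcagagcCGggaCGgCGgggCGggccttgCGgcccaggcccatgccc
Both are rich in CG pairs. Slc22a4 has 26 of them and 71.2% G or C, and Slc22a5 has 30 and 73.6%, while the medians over the same 250 bases of all 32851 RefSeq promoters are 6 and 52.4%. The promoter of Slc22a18 has 0 CG pairs and 52.8% G or C, that of Slc22a2 6 and 51.6%, that of Slc22a15 24 and 66.8% and that of Slc22a23 32 and 78.4%. The sequence table has no entry for Slc22a21.

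The letter patterns of 2 HNF4 motifs were searched on both strands of the 300-base windows from 250 bases before to 50 after each start. CAAAGTCCA, the HNF4 pattern, was in 0.4749% of all promoters, and CAAAGGTCA, which HNF4 shares with PPAR and RXR receptors, in 0.4779%. Neither was in the windows of the 7 members with an entry, which says only that these letters are not there.

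Slc22a4 encodes OCTN1, the ergothioneine transporter. Its log2 signals were 5.73, 5.39 and 4.28 in the controls and 3.75, 4.34 and 3.87 in the mutants. Control replicate 3 lay below mutant replicate 2, so the groups overlapped. The means were 5.13 ± 0.76 and 3.99 ± 0.31 (SD, n = 3 each), a difference of -1.14 (SE 0.37, 95% confidence interval -2.02 to -0.27). The ratio of mutant to control was 0.452 (0.246 to 0.831), with an unadjusted limma p of 0.0179 and an adjusted p of 0.284. An exact two-sided permutation test gave p = 0.2, and 3 arrays against 3 cannot go below 0.1. Mutant replicates 1 and 3 lay inside the range of 2.75 to 4.01 that the Y-linked genes gave in the controls, which read as female. Without control replicate 3 the difference was -1.57 (adjusted p = 0.0839), without mutant replicate 1 it was -1.03 and without mutant replicate 2 -1.32. Over all the alternative settings the adjusted p ran from 0.0839 to 0.615.

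Slc22a21 encodes Octn3, a carnitine transporter of rodents. It gave 6.42, 5.80 and 6.19 in the controls and 5.06, 5.47 and 5.40 in the mutants. Every mutant lay below every control, as did the mutants of 8.86% of all genes. The means of 6.13 ± 0.31 and 5.31 ± 0.22 differed by -0.82 (SE 0.19, interval -1.27 to -0.38), a ratio of 0.565 (0.415 to 0.768). The limma p was 0.00324 unadjusted and 0.149 adjusted, and the exact permutation p was 0.1, the smallest 3 against 3 allows. The difference was -0.70 (adjusted p = 0.248) without mutant replicate 1, and -0.90 (adjusted p = 0.237) without mutant replicate 2. Over all the alternative settings the adjusted p ran from 0.0505 to 0.405. The OCTN genes resemble each other in sequence, and whether a probe set also took up RNA of a relative was not tested.

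Slc22a5 encodes OCTN2, the carnitine transporter whose loss causes primary carnitine deficiency. It gave 10.05, 9.29 and 9.34 in the controls and 9.34, 9.77 and 10.02 in the mutants, so that the groups overlapped. Control replicate 1 and mutant replicate 3 were the highest. The difference was 0.15 (SE 0.25, interval -0.45 to 0.75, adjusted p = 0.823). A less intense probe set gave 8.15, 7.57 and 7.60 against 7.64, 8.46 and 8.45, with mutant replicates 2 and 3 above every control and mutant replicate 1 among them. Its difference was 0.41 (SE 0.27, interval -0.22 to 1.04, adjusted p = 0.534). The main probe set gave 0.34 (adjusted p = 0.609) without mutant replicate 1 and 0.12 (adjusted p = 0.945) without mutant replicate 2.

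**Figure D1:**
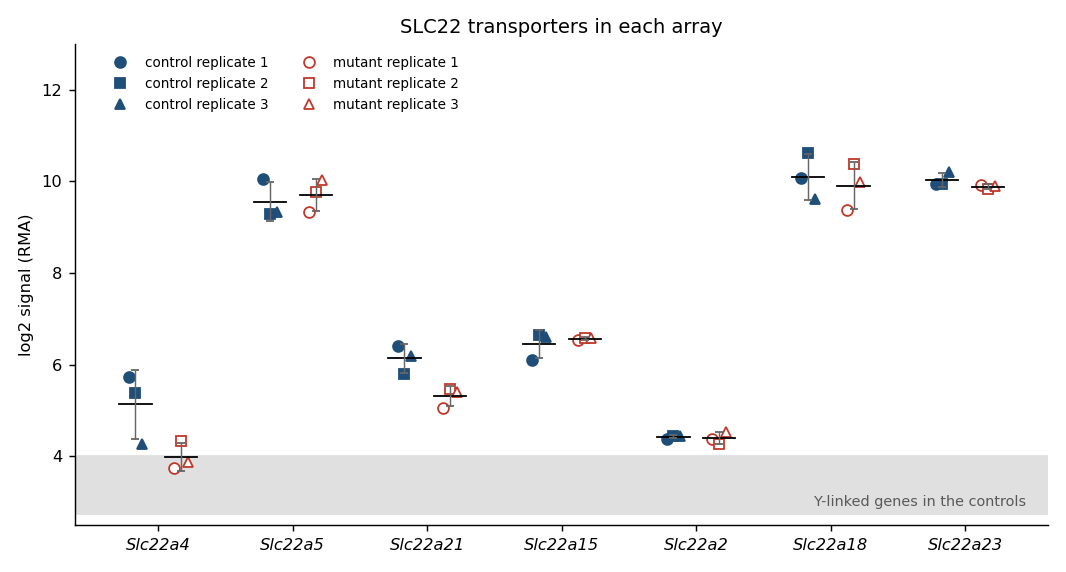
Log2 RMA signal of 7 SLC22 genes in each of 3 control (filled blue) and 3 Hnf4a mutant (open red) arrays, with the mean (line) and SD (bar) of each group and, in grey, the range of the Y-linked genes in the controls. The mutants of Slc22a21 all lie below the controls, and 2 mutants of Slc22a4 lie in the grey range; heights are not comparable between genes.

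Since Slc22a21 and Slc22a5 lie side by side, their difference within each array was also taken, a comparison added after the values had been seen and so given as a description without a test. It gave -3.63, -3.49 and -3.15 in the controls and -4.28, -4.30 and -4.62 in the mutants. All mutants lay below all controls, with means of -3.43 ± 0.25 and -4.40 ± 0.19. The group means differed by -0.98, and by -1.24 with the less intense Slc22a5 probe set. The difference of Slc22a4 and Slc22a5 differed between the groups by -1.29, and that of Slc22a4 and Slc22a21 by -0.32. Both take in the Slc22a4 signals of mutant replicates 1 and 3, which lay inside the range of the Y-linked genes in the controls.

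Slc22a15 takes up ergothioneine and other zwitterions. Its log2 signals were 6.10, 6.65 and 6.60 in the controls and 6.53, 6.59 and 6.59 in the mutants, and control replicate 1 was below the rest. The difference was 0.12 (SE 0.16, interval -0.25 to 0.49, adjusted p = 0.764), and a second probe set gave 0.12 too (adjusted p = 0.774). In that probe set the low control was replicate 2, at 4.39, against 4.85 and 4.86 in the other controls and 4.92, 4.86 and 4.66 in the mutants. Without mutant replicate 1 the main probe set gave 0.14, and without mutant replicate 2 it gave 0.11.

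Slc22a2 encodes OCT2, best known from the kidney. It gave 4.38, 4.45 and 4.44 against 4.39, 4.27 and 4.53, the groups overlapping, just above the range of the Y-linked genes in the controls. The difference was -0.03 (SE 0.10, interval -0.27 to 0.21, adjusted p = 0.921), and it was -0.02 without mutant replicate 1 and 0.03 without mutant replicate 2.

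Slc22a18 is an orphan transporter from an imprinted region. It gave 10.07, 10.61 and 9.62 against 9.37, 10.37 and 9.99, and the replicates of each group spread widely. The difference was -0.19 (SE 0.32, interval -0.96 to 0.58, adjusted p = 0.824), and -0.22 (SE 0.28, adjusted p = 0.759) by a second probe set. That probe set gave 9.64, 10.36 and 9.60 against 9.22, 10.08 and 9.64, with replicate 2 the highest of each group in both probe sets and mutant replicate 1 the lowest of all. The main probe set gave 0.08 without mutant replicate 1, a change of sign, and -0.42 without mutant replicate 2.

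Slc22a23, another orphan transporter, gave 9.94, 9.93 and 10.21 in the controls and 9.92, 9.83 and 9.91 in the mutants. All 3 mutants were below all 3 controls, by less than the spread among the controls, and control replicate 3 stood highest. The difference was -0.14 (SE 0.11, interval -0.40 to 0.12, ratio 0.906, adjusted p = 0.601, exact permutation p = 0.1). Without control replicate 3 it was -0.05 (adjusted p = 0.927), without mutant replicate 1 -0.16 and without mutant replicate 2 -0.12, and the adjusted p ran from 0.391 to 0.927 over the alternative settings. Of the 7 genes, Slc22a21 and Slc22a23 were the 2 whose groups did not overlap, both lower, beside 8.86% of all genes with this lower pattern, 14.5% with the opposite one and 23.3% with either.

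**Figure D2:**
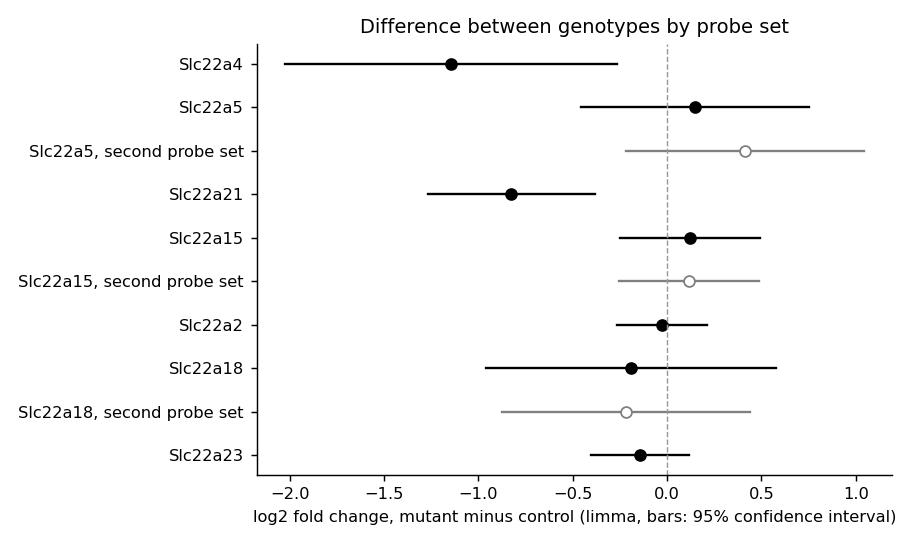
Log2 fold change, mutant minus control, by probe set for 7 genes, with 95% confidence intervals from limma (filled, the main probe set; open, a second one). The intervals of Slc22a4 (-2.02 to -0.27) and Slc22a21 (-1.27 to -0.38) lie below 0; all others cross it.

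The genes that flank the OCTN cluster were read in the same way. Of the nearest measured gene on each side, Irf1, an interferon-responsive transcription factor, gave 9.85, 9.36 and 9.86 in the controls and 9.46, 9.13 and 9.09 in the mutants, a difference of -0.46 (SE 0.17, adjusted p = 0.340). Pdlim4, a cytoskeletal adaptor on the other side, gave a difference of -0.58 (SE 0.34, adjusted p = 0.501). Neither passed the adjusted threshold, and Irf1, like Slc22a4 and Slc22a21, was lower at an unadjusted p of 0.05, with an unadjusted limma p of 0.0326.

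**Figure D3:**
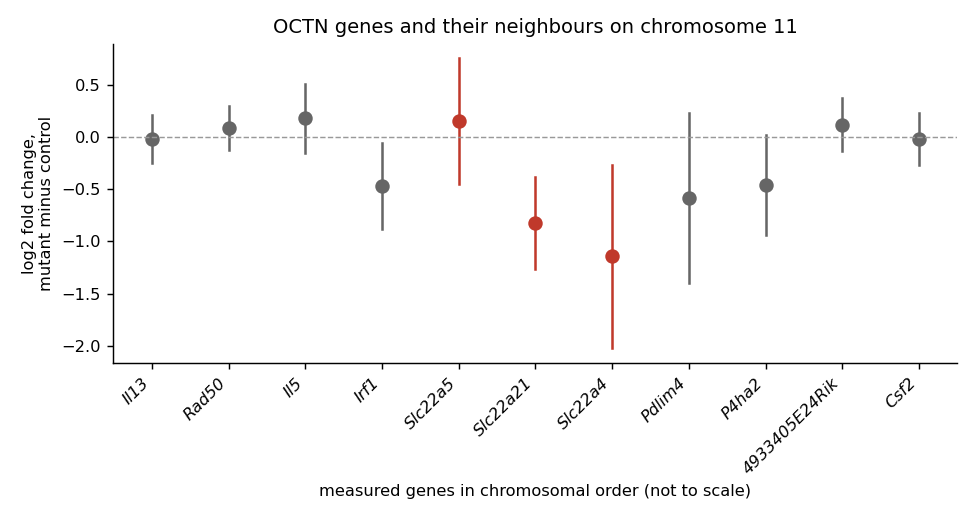
Log2 fold change, mutant minus control, with 95% confidence intervals, for the 3 OCTN genes (red) and the nearest measured genes on each side (grey), in chromosomal order and not to scale. Of the OCTN genes, Slc22a21 and Slc22a4 lie below 0 and Slc22a5 at 0.15.

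Over all 41 genes that flank the members, limma called 0 at the adjusted threshold, and 6 were higher and 3 lower at an unadjusted p of 0.05, where 10% of all genes were higher and 6.18% lower, with a median of 0.06. The 3 with the smallest p were not the nearest ones. Tnfrsf22, a decoy receptor at position 4 from Slc22a18, differed by 0.74 (SE 0.11, adjusted p = 0.0545). Vangl1 and Igsf3, at positions 3 and -2 from Slc22a15, differed by 0.65 (adjusted p = 0.0605) and -0.83 (adjusted p = 0.0612). The genes next to Slc22a18 in its imprinted region were Cdkn1c, which encodes a cell cycle inhibitor, and Phlda2. Cdkn1c gave 7.30, 8.32 and 8.10 against 6.78, 6.61 and 6.32, a difference of -1.34 (SE 0.27, adjusted p = 0.112), and Phlda2 gave 0.10 (adjusted p = 0.892). The nearest measured genes of the remaining members differed less than Cdkn1c. They were Mab21l3 (-0.03) and Nhlh2 (0.19) for Slc22a15, and Psmg4 (0.21) and Pxdc1 (0.11) for Slc22a23. For Slc22a2 they were C030013G03Rik (0.19) and Igf2r (0.06), and for Slc22a3 Plg (0.21) and C030013G03Rik.

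The genes most like Slc22a4, by the root mean square difference of the 6 arrays' values from the control mean, were Abhd11os (0.276), 9130016M20Rik (0.287) and Ptprr (0.319). Those most like Slc22a21 were Chkb (0.117), Mlxipl (0.147) and Phyh (0.153), which differed between the genotypes by -0.71, -0.92 and -0.74. These genes were picked for this likeness over 6 arrays, and their differences are a description.

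Outside the members, the other SLC22 genes, mostly organic anion transporters, gave 14 measured of 17, with 0 called and a median of 0.07. At an unadjusted limma p of 0.05, where 10% of all genes were higher and 6.18% lower, 1 was higher: Slc22a13 at 0.23 (SE 0.09, adjusted p = 0.363). The carnitine enzymes and carriers gave 11 of 12, with 0 called and a median of -0.18, and 1 was higher and 1 lower at the unadjusted threshold. Tmlhe, the first enzyme of carnitine synthesis and an X-linked gene, gave 8.04, 7.98 and 8.03 against 8.40, 8.80 and 8.58, a difference of 0.58 (SE 0.12, adjusted p = 0.125), and its less intense probe sets gave 0.57, 0.49 and 0.05. Crot, a peroxisomal carnitine acyltransferase, gave -0.34 (adjusted p = 0.372), with 0.18 (adjusted p = 0.642) by its other probe set, and Cpt1c gave -0.37 (adjusted p = 0.457).

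The other organic cation, choline and monoamine transporters gave 15 measured of 17, with 0 called and a median of -0.02. At an unadjusted limma p of 0.05, 2 were higher and 3 lower, where 10% of all genes were higher and 6.18% lower. Slc6a4, the serotonin transporter, gave 5.55, 5.87 and 5.91 against 5.02, 5.16 and 5.09, so that the groups did not overlap, and differed by -0.68 (SE 0.12, adjusted p = 0.0844). Slc44a2, a choline transporter-like protein, differed by 1.09 (SE 0.26, adjusted p = 0.162), and its less intense probe sets by 1.10 (adjusted p = 0.0492) and 0.52 (adjusted p = 0.188). Slc18b1, a vesicular polyamine carrier, differed by -0.39 (SE 0.11, adjusted p = 0.231).

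Among the regulators and PDZ scaffold proteins that hold transporters at the membrane, 10 of 12 were measured, with a median of -0.32. Of these, 2 were called, both lower, where 0.396% of all genes were called lower. They were Hnf4a, given above and the gene deleted in these mutants, and Ppara. With both counted, 1 gene was higher and 4 lower at an unadjusted limma p of 0.05, where 10% of all genes were higher and 6.18% lower. Ppara, the fatty acid receptor that controls carnitine and fatty acid genes, gave 9.01, 8.62 and 8.88 in the controls and 7.67, 7.92 and 7.89 in the mutants. The groups did not overlap, and it fell by 1.01 (SE 0.13, adjusted p = 0.0368). Its less intense probe sets gave -0.95 (adjusted p = 0.0602) and -0.76 (adjusted p = 0.108) and did not pass. The call was lost when any single array other than control replicate 2 was left out, with differences of -1.06 to -0.93 and adjusted p of 0.0818 to 0.159. Its coactivator Ppargc1a gave -1.11 (SE 0.23, adjusted p = 0.123) and from -1.17 to -0.68 by its other probe sets. The paralogue Hnf4g gave 0.21. Of the scaffolds, Pdzk1 gave -0.12, Slc9a3r1 -0.33 (limma adjusted p = 0.667) and Slc9a3r2 -0.33 (limma adjusted p = 0.474). Less intense probe sets gave -0.33 and -0.46 for Slc9a3r1 and from -0.72 to -0.25 for Slc9a3r2. Hnf4g and the scaffolds were named after their values were seen.

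**Figure D4:**
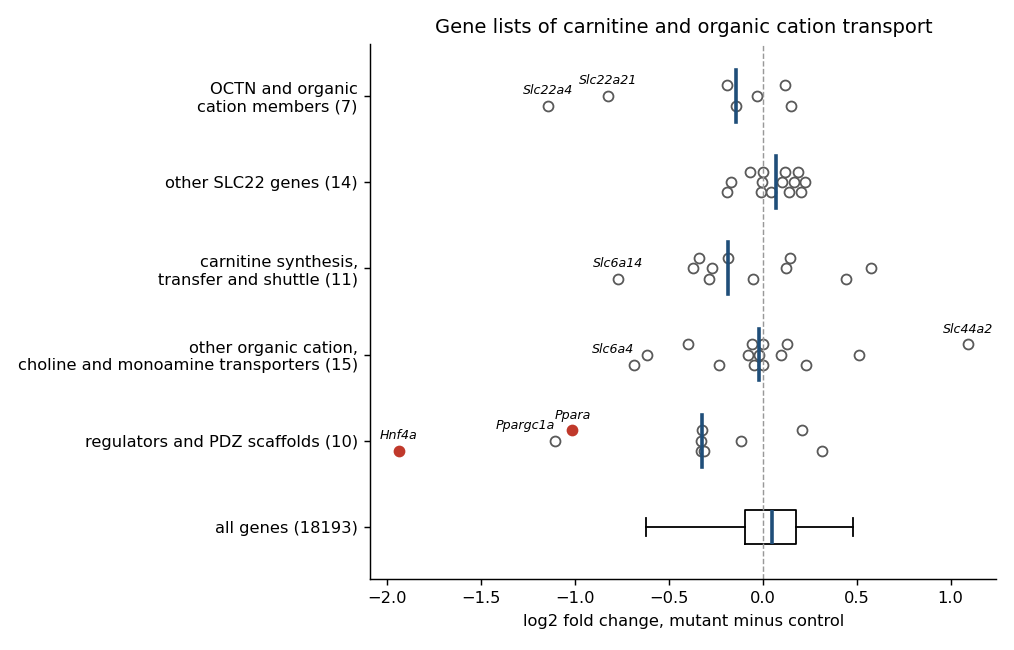
Log2 fold change, mutant minus control, of the genes in each list (points; filled red, limma adjusted p under 0.05; blue line, list median), with all 18193 genes as a box of the middle 50% with whiskers at the 5th and 95th percentiles. The medians run from -0.32 for the regulators to 0.07 for the other SLC22 genes, and Hnf4a, the deleted gene, and Ppara are the filled points.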

How the data were processed

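Total RNA of the colon of 3 control and 3 Hnf4a mutant mice, 1 array each, was measured on an Affymetrix mouse array. The authors deposited log2 signals after RMA (per the submitters' processing notes; FlexArray by the methods), which leave no depth, so that precision rests on 3 arrays a group. Of 45101 probe sets, 64 AFFX controls were left out, and 34945 of the 45037 others had 1 gene symbol, 932 several and 9160 none; names came from the platform annotation, with RefSeq GRCm38.p6 for positions (204 probe sets without a match). The unadjusted p is that of limma 3.58.1 (R 4.3.3), fitted over all 45037 probe sets without a filter, with Benjamini-Hochberg adjustment, and tested on simulated data. Genes were named by rule: all members, Hnf4a, Xist and Y-linked genes, up to 3 of each list with the smallest p, and the 3 most like each member with an unadjusted p under 0.05. Flanking genes were named by position, apart from the 3 with the smallest p. The members, lists and tests were chosen with earlier results of these data known. Mice are separate animals by the design. The replicate numbers were not shown to pair mice. Alternatives were each array left out, the replicate block, a filter at log2 signal 5, quantile and median scaling, array weights, a trended robust error model, the rebuilt SAM test, X and Y genes left out, and the mean of probe sets.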

Additional observations from a re-analysis of the deposited data

How the results depend on the processing

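Of the 7 members, 0 were called under every alternative but SAM at unadjusted p, which gave 2. All genes called, 160, became 25 to 162 with 1 array left out, 379 with array weights, 254 with the mean of probe sets and 2828 by SAM. SAM also gave 1 other SLC22 gene, 1 carnitine gene, 5 organic cation transporters (array weights 1) and 3 regulators (array weights 3, arrays left out 1 to 2). Flanking genes called, 0 at first, were 1 with quantile scaling, 2 with median centring, 3 with array weights, 9 by SAM and 1 with the mean of probe sets. With 1 array left out, Slc22a2 (-0.094 to 0.034, above 0 without mutant replicate 2), Slc22a5 (-0.0044 to 0.40, below 0 without mutant replicate 3), Slc22a15 (-0.052 to 0.22, below 0 without control replicate 1) and Slc22a18 (-0.43 to 0.082, above 0 without control replicate 2 or mutant replicate 1) changed sign, as did Slc22a2 with median centring (0.0040) and array weights (0.018). The cause was not tested. Slc22a4 ranged from -1.57 to -0.85, Slc22a21 from -0.99 to -0.68 and Slc22a23 from -0.19 to -0.05 with 1 array left out, without a change of sign. A replicate block, which the same-number correlations of -0.02, 0.25 and -0.15 do not bear out, gave 0 members, 42 of all genes and 1 regulator. Low signals such as those of Slc22a4 in the mutants lie near background, which limits how far a fall can be read. Slc22a21 in the mutants lay near the array medians, and its distance from background was not tested.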
